A study of Mus musculus with 12 samples.

Results

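The 7 genes described here, Sox4, Sox5, Sox6, Sox9, Sox11, Sox12 and Sox13, encode transcription factors of the Sox family and were taken by symbol from the deposited count table, which held 53599 genes. All 7 symbols were found among the 20 mouse Sox genes of the table. Of the members, 6 had enough counts to be tested, and Sox11 did not.

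RNA was sequenced from 12 libraries of cells sorted from mouse liver, 3 in each of 4 groups. All mice were labelled WT and had received AAV8-TBG-Cre, an adeno-associated virus whose TBG promoter drives Cre in hepatocytes, so that EGFP is read as a label of hepatocytes and cells derived from them. All had then been fed 0.1% DDC for 8 weeks, a diet that injures the bile ducts, so no group came from an uninjured liver or from mice without the virus. Early cells were EGFP+ Cd24- Epcam-, intermediate cells EGFP+ Cd24+ Epcam-, and full cells EGFP+ Cd24+ Epcam+, which the submitters set as stages of hepatobiliary reprogramming. Cd24 and Epcam were used to sort the cells. The fourth group, BEC, was sorted as EGFP- Epcam+ and is defined by absence of the hepatocyte label. The labels do not give age, sex, the reporter allele or the number of animals behind a library, and p-values measure only the spread between these libraries, which may be technical. In bulk RNA, fewer cells of a type and less RNA per cell cannot be told apart.

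Sox proteins bind DNA through an HMG box related to that of Sry and are grouped by sequence. Sox4, Sox11 and Sox12 form the SoxC group, single-exon genes active in progenitor cells. Sox5, Sox6 and Sox13 form the SoxD group, which lacks an activation domain of its own and often acts beside other Sox proteins. Sox9 belongs to the SoxE group and with Sox5 and Sox6 drives cartilage formation. In the liver, Sox9 marks biliary cells from the start of bile duct development, lies downstream of Notch signalling, and shares with Sox4 a role in shaping the ducts.

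Total counts ranged from 15112893 to 19731887 per library. Values are library-size-scaled counts (CPM) on the TMM scale, and genes were called at an adjusted p under 0.05 (edgeR's quasi-likelihood test, Benjamini-Hochberg over 16210 genes). The labelled cell types were checked against their markers. The 6 hepatocyte markers summed to between 92009 and 96211 CPM in early libraries and to between 1960 and 2579 CPM in BEC. Of the 5 biliary markers, Spp1 made up most of the summed level, which lay between 869 and 1812 CPM in early and between 13009 and 16466 CPM in BEC. Epcam was itself used in the sort. The cytokeratin Krt19 had 0.111 ± 0.0448 CPM in early and 2.21 ± 1.13 CPM in intermediate, rising to 118 ± 18.8 CPM in full cells and 593 ± 105 CPM in BEC (SD, n = 3), and Krt7 and Cftr were likewise under 1 CPM in early libraries. The mitochondrial share of counts moved with the groups, from 5.45% to 11.4% in early, 3.99% to 4.75% in intermediate, 2.20% to 2.48% in full and 2.58% to 3.43% in BEC, and its part in the Sox values was not tested. Without early replicate 2, which had the highest share, the numbers of members called in each comparison were the same as with it.

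At the first step, from early to intermediate, Sox4, Sox9, Sox12 and Sox6 rose. At the second, from intermediate to full, Sox12 and Sox6 rose further. The fit with a replicate block also called Sox9 higher at the second step (0.29, edgeR adjusted p 0.0380). Sox4 and Sox9 rose 14.7-fold and 7.19-fold at the first step, while Sox12 rose 1.62-fold and then 2.25-fold. Sox5 and Sox13 were called in no comparison when all 12 libraries were fitted on the TMM scale, but without early replicate 1 Sox5 was called lower in full (-0.29, edgeR adjusted p 0.0362) and in BEC (-0.36, edgeR adjusted p 0.0123) than in early. Sox11 transcripts were close to 0 in early and intermediate cells and reached a few counts per library in full and BEC. No member was called between BEC and full in the fit without a replicate block, and the block called Sox4 and Sox6 lower in BEC.

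Of the 6 members tested, 4 were called between intermediate and early, all higher in intermediate, where 54.4% of all genes were called, 28.7% higher and 25.7% lower. The same 4 members had groups that did not overlap, against 58.7% of all genes. Between full and intermediate 2 were called, both higher in full, where 40.7% of all genes were called, 20.8% higher and 19.8% lower. There 3 members did not overlap, Sox6, Sox9 and Sox12, against 55% of all genes. The fit with a replicate block called these 3 higher, where it called 22.9% of all genes higher and 22.1% lower. Between BEC and full 0 members were called, against 21.3% of all genes, 10.7% higher and 10.6% lower. With the block 2 were lower, where that fit called 12.6% of all genes higher and 12.6% lower.

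Full cells had 4 members called above early cells, against 71.2% of all genes, 39.1% higher and 32.1% lower, and these 4 did not overlap, against 74.4%. BEC had the same 4 above early, against 73.1% of all genes, 40% higher and 33% lower, and these did not overlap either, against 74.7%. Between BEC and intermediate 1 member was called, Sox12, higher in BEC and without overlap. Of all genes 52.4% were called there, 26.3% higher and 26.2% lower, and 61% did not overlap. Across the 4 groups, 4 of 6 members were called by the F test, against 75.6% of all genes, so the number of members called was near the background. By absolute log2 fold change at the first step, Sox4 ranked 723 and Sox9 1435 among the 16210 genes. The median log2 fold change at the first step was 0.56 over the tested members and 0.06 over all genes, and at the second step 0.19 and 0.01.

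**Figure D1:**
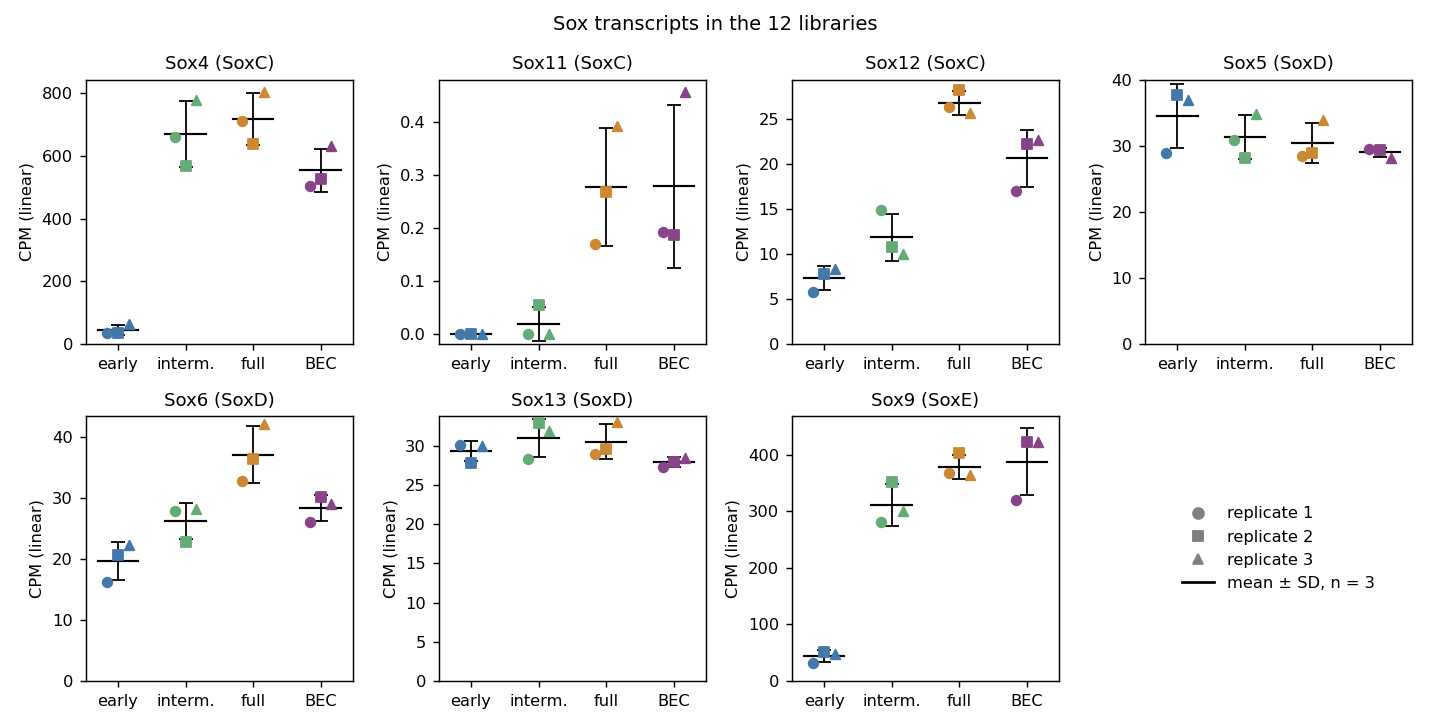
CPM of each member (vertical axis, linear, a separate scale for each gene) in the early, intermediate, full and BEC libraries, with a symbol for each replicate number and the mean ± SD of 3 libraries as lines. Sox4 and Sox9 are low in all 3 early libraries and high in the other 9, Sox12 and Sox6 are highest in full, and Sox5 and Sox13 stay near 30 CPM.

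Among the SoxC genes, Sox4 was the most abundant. Its levels were 36.4, 35.2 and 65.1 CPM in early replicates 1 to 3, and 662, 569 and 780 CPM in intermediate. They were 712, 640 and 804 CPM in full and 503, 527 and 633 CPM in BEC. Each early library lay far below each library of the other groups, while intermediate overlapped with full and with BEC, and BEC lay just below full. The log2 fold change of intermediate against early was 3.88 (SE 0.23, edgeR adjusted p 1.55e-08). Full against early gave 3.98 (edgeR adjusted p 2.70e-09) and BEC against early 3.60 (edgeR adjusted p 4.85e-09). Full against intermediate gave 0.10 with a 95% interval from -0.34 to 0.54 (edgeR adjusted p 0.730), an interval that holds both a small decrease and a small increase. The change at the second step was smaller than at the first (log2 difference -3.78, SE 0.34, edgeR adjusted p 7.03e-06).

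Sox4 lay lower in BEC than in full without being called (log2 fold change -0.37, 95% interval -0.81 to 0.06, edgeR adjusted p 0.241). The lowest full library had 640 CPM and the highest BEC library 633 CPM. Fitted with a replicate block, Sox4 passed the threshold (-0.38, edgeR adjusted p 0.0307).

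Sox12, a weaker activator of the same group, followed another course. It had 5.77, 7.82 and 8.34 CPM in early and 14.8, 10.8 and 9.96 CPM in intermediate. Full libraries had 26.3, 28.2 and 25.6 CPM and BEC libraries 17.0, 22.2 and 22.6 CPM. The 4 groups did not overlap with each other, with full highest and early lowest. The log2 fold change was 0.70 at the first step (SE 0.19, edgeR adjusted p 0.00635) and 1.17 at the second (SE 0.17, edgeR adjusted p 0.000111). The second step was not shown to differ from the first (0.47, 95% interval -0.20 to 1.15, edgeR adjusted p 0.351). Sox12 was higher in BEC than in intermediate (0.80, SE 0.17, edgeR adjusted p 0.00150). Against full it was -0.37 in BEC (95% interval -0.73 to -0.01, edgeR adjusted p 0.145).

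Sox11, an embryonic relative of Sox4, was present in trace amounts only. It had 0 counts in each early library and 0, 1 and 0 counts in intermediate. Full libraries had 4, 6 and 9 counts and BEC libraries 4, 4 and 10 counts, no more than 0.457 CPM. Every full and BEC library was above every early and intermediate library, although a floor of 3 counts corresponds to between 0.128 and 0.273 CPM per library. Set against a floor of 3 counts over the early group, Sox11 was at least 3.31-fold higher in full and at least 3.37-fold higher in BEC. Full against intermediate rests on 19 counts against 1, a ratio of 14.3 with a counting interval from 2.28 to 595. In the fit without a filter on low counts, the edgeR adjusted p was 0.0117 both for full and for BEC relative to early, and 0.0512 and 0.0413 relative to intermediate.

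The promoters of the SoxC and SoxD members were examined because Sox4, Sox12 and Sox5 differed in the size of their change from early cells. The 250 bases before the annotated start were taken from RefSeq (GRCm38.p6), which lists 11 such starts for 6 of the 7 members, all on the minus strand. Sox9 was not matched. The sequences, 5′ to 3′, were searched on both strands for a Sox motif (ATTGTT), the TEAD motif (GGAATG) bound by the partners of YAP, and the RBPJ motif (GTGGGAA) of Notch signalling; capitals mark a match. Sox4 lies at chr13:28953700-28953949, Sox12 at chr2:152398047-152398296 and Sox5 at chr6:143947107-143947356.
Sox4: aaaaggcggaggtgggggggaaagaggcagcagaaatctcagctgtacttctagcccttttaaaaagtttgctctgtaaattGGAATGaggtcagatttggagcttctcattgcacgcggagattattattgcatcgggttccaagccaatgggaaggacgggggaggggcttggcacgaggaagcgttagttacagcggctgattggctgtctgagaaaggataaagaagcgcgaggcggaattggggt
Sox12: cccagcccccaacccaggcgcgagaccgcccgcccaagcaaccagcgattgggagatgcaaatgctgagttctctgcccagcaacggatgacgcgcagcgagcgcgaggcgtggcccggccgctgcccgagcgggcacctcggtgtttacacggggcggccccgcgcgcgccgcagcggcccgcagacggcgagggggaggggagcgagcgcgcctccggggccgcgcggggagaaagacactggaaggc
Sox5: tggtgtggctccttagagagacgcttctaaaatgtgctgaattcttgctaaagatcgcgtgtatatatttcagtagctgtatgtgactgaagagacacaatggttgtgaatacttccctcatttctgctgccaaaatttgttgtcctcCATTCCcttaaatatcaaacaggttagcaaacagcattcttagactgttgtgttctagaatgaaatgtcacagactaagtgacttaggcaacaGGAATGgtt
The Sox4 promoter holds the TEAD letters once, 168 bases before the start. The stretch before the only Sox5 start listed holds them at 9 and at 102 bases before that start. Sox5 has 14 annotated transcripts, and whether this start is used in these cells was not tested. The Sox12 promoter holds none of the 3 motifs and has a GC content of 74.4%, against 50.8% for Sox4 and 39.6% for Sox5. Among all 11 promoters, 4 hold the TEAD letters (Sox4, Sox5 and 2 of the 6 starts of Sox6), 1 a Sox motif (Sox6) and 0 the RBPJ letters. Of 32851 promoters in the table, 12.6% hold the TEAD letters, 9.42% the Sox letters and 5.42% the RBPJ letters in the same window. A match does not show that a factor binds, and the TEAD letters occurred both in a gene that rose and in one that was not called.

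Sox9, the SoxE member and the usual marker of biliary cells, had 31.6, 51.7 and 46.8 CPM in early and 281, 352 and 301 CPM in intermediate. It had 367, 403 and 364 CPM in full and 319, 422 and 421 CPM in BEC. The early libraries lay far below all others, and full lay wholly above intermediate. BEC spread widely and overlapped with both. The log2 fold change was 2.85 at the first step (SE 0.18, edgeR adjusted p 2.19e-08). It was 3.13 for full against early (edgeR adjusted p 2.19e-09) and 3.16 in BEC relative to early (95% interval 2.78 to 3.54). At the second step it was 0.28 (95% interval -0.07 to 0.63, edgeR adjusted p 0.187), and the fit with a replicate block gave 0.29 (edgeR adjusted p 0.0380). As for Sox4, the second step was smaller than the first (-2.56, SE 0.27, edgeR adjusted p 2.93e-05). Of the members tested, 2 differed between the steps, Sox4 and Sox9, both with a negative difference. Of all genes 16.4% were called in this test, 10.8% with a negative and 5.64% with a positive difference, where a negative one can also be a larger fall at the second step. BEC and full did not differ beyond the spread (0.04, 95% interval -0.31 to 0.38, edgeR adjusted p 0.924).

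**Figure D2:**
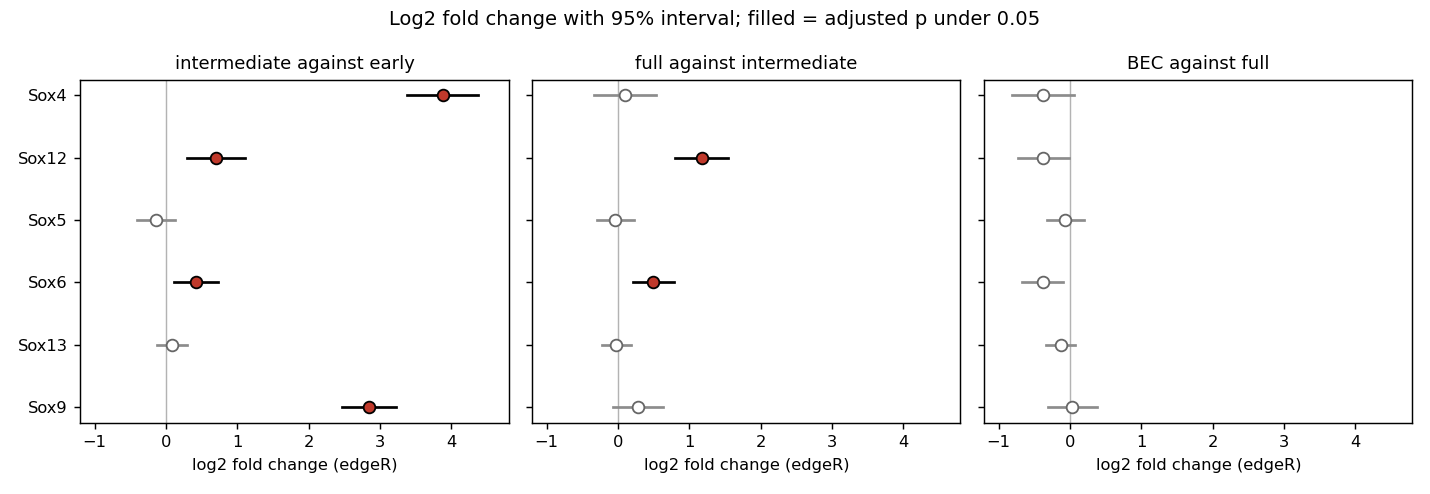
Log2 fold change of the 6 tested members (horizontal axis, edgeR, TMM scale) with its 95% interval, for intermediate against early, full against intermediate and BEC against full. Filled points passed an adjusted p of 0.05: Sox4, Sox12, Sox6 and Sox9 at the first step, Sox12 and Sox6 at the second, and none in the third panel.

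Among the SoxD genes, Sox6 rose at both steps by small amounts. Sox6, which acts with Sox5 in cartilage and also in red cell and muscle development, had 16.2, 20.6 and 22.3 CPM in early and 27.9, 22.9 and 28.2 CPM in intermediate. Full libraries had 32.8, 36.5 and 42.2 CPM and BEC libraries 26.1, 30.2 and 29.0 CPM. The early, intermediate and full groups did not overlap with each other, and BEC overlapped with intermediate. The log2 fold change was 0.42 at the first step (SE 0.14, edgeR adjusted p 0.0221) and 0.50 at the second (SE 0.14, edgeR adjusted p 0.00972). The first call was lost without early replicate 1 (0.30, edgeR adjusted p 0.0927), intermediate replicate 1 (0.38, edgeR adjusted p 0.0638) or intermediate replicate 3 (0.37, edgeR adjusted p 0.0755), and the second without intermediate replicate 2 (0.40, edgeR adjusted p 0.0577) or full replicate 3 (0.40, edgeR adjusted p 0.0549), which leaves 1 member called at that step. Full against early, 0.92 (SE 0.14, edgeR adjusted p 4.59e-05), and BEC against early, 0.53 (SE 0.14, edgeR adjusted p 0.00365), were called in each of the 21 alternatives tried.

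In BEC, Sox6 lay below full (-0.38, 95% interval -0.67 to -0.09, edgeR adjusted p 0.0589). The fit with a replicate block gave an edgeR adjusted p of 0.0265. Sox6 and Sox12 were the 2 members with an unadjusted p under 0.05 between BEC and full. DESeq2 called 0 members there and limma-voom 2. Sox4, Sox6, Sox12 and Sox13 were lower in every BEC library than in every full library, 4 of the 6 members tested, where 39.6% of all genes had groups that did not overlap in either direction.

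Sox5 had between 29.0 and 37.8 CPM in early, 28.3 and 34.9 in intermediate, 28.5 and 33.9 in full and 28.3 and 29.6 in BEC. Sox13 had between 27.8 and 30.1 CPM in early, 28.3 and 32.9 in intermediate, 28.9 and 33.1 in full and 27.3 and 28.5 in BEC. The groups overlapped in all comparisons for Sox5 and in all but BEC against full for Sox13. At the first step the log2 fold change was -0.14 for Sox5 (95% interval -0.41 to 0.12, edgeR adjusted p 0.345). For Sox13, a SoxD gene studied mainly in T cells, it was 0.08 (95% interval -0.12 to 0.29, edgeR adjusted p 0.492). These values depend on the scale: when libraries were scaled by their totals instead, Sox5 gave 0.52 (edgeR adjusted p 0.00182) and Sox13 0.75 (edgeR adjusted p 1.11e-05), while the median of all genes moved from 0.06 to 0.72. Antisense and intronic transcripts at the Sox loci, such as Sox5os4, had at most 12 counts in a library, and Sox5 itself had at least 367.

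The share of each gene in a library's Sox counts does not depend on scaling between libraries. The shares are of raw counts and not per length, so they can be followed for 1 gene across groups but do not rank genes against each other. In early cells Sox4 held 24.8% ± 5.71 of all Sox counts and Sox9 23.8% ± 3.88, with 19.2% ± 1.66 for Sox5, 16.5% ± 3.22 for Sox13, 10.9% ± 0.410 for Sox6 and 4.03% ± 0.226 for Sox12 (SD, n = 3). In intermediate cells Sox4 held 61.6% ± 5.09 and Sox9 28.9% ± 4.97, and Sox5, Sox6 and Sox13 each held at most 3.24% in each library. Full cells had 58.6% ± 3.52 Sox4 and 31.0% ± 3.33 Sox9, and BEC 52.8% ± 2.72 and 36.8% ± 2.68 (SD, n = 3). Sox4 and Sox9 together held between 45.6% and 52.7% of the family's counts in early libraries and between 89.0% and 91.1% in the others.

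**Figure D3:**
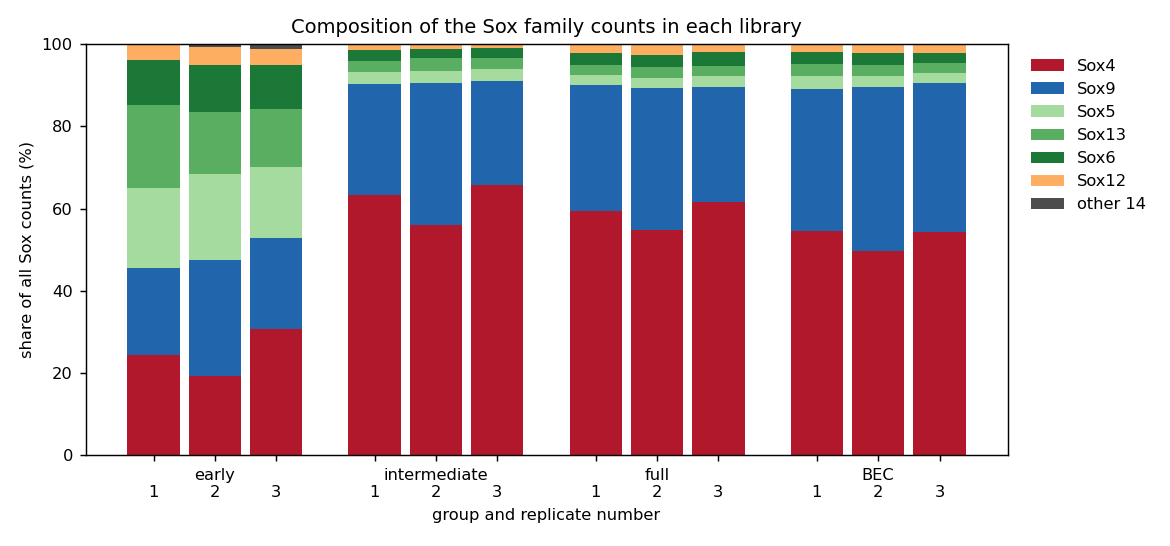
Share of all Sox family counts (vertical axis, percent) held by each gene in each of the 12 libraries, ordered by group and replicate number; the dark segment holds the remaining Sox genes, and counts are not divided by gene length. The 3 early libraries divide their counts among Sox4, Sox9 and the SoxD genes in green, and in the other 9 libraries Sox4 and Sox9 together hold between 89.0% and 91.1%.

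The ratio of Sox4 to Sox9 counts was 1.15, 0.681 and 1.39 in early and 2.35, 1.62 and 2.59 in intermediate. It was 1.94, 1.59 and 2.21 in full and between 1.25 and 1.58 in BEC. All 3 intermediate libraries had a higher ratio than all early and BEC libraries. In all 4 groups the lowest ratio was that of replicate 2.

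Levels of different genes can be compared only per length. Per kilobase of annotated exon, early libraries had a mean of 10.5 ± 2.52 CPM for Sox9, 9.50 ± 3.53 for Sox4, 6.80 ± 0.297 for Sox13, 2.41 ± 0.338 for Sox5, 1.64 ± 0.304 for Sox12 and 1.33 ± 0.211 for Sox6 (SD, n = 3). Sox9 and Sox4 did not differ beyond their spread. The order of Sox12 and Sox6 turned with the length used: per kilobase of the longest transcript, early libraries had 1.64 ± 0.304 CPM of Sox12 and 2.27 ± 0.361 of Sox6 (SD, n = 3). In BEC the order was Sox4 at 116 ± 14.4, Sox9 at 93.7 ± 14.3, Sox13 at 6.47 ± 0.145, Sox12 at 4.63 ± 0.710, Sox5 at 2.02 ± 0.0481, Sox6 at 1.92 ± 0.143 and Sox11 at 0.0335 ± 0.0186 CPM per kilobase (SD, n = 3). By exon union Sox13 held the third place in both groups. Per kilobase of the longest transcript, its early libraries, from 7.54 to 8.16 CPM, overlapped with Sox4 (7.34 to 13.6) and Sox9 (7.65 to 12.5). The place of Sox12 against Sox5 depends on the length used: the exon union of Sox5 spans 14376 bases and its longest transcript 7243, and per kilobase of the longest transcript BEC had 4.01 ± 0.0954 CPM of Sox5 and 4.63 ± 0.710 of Sox12, which overlap. In BEC the neighbours Sox5 and Sox6 did not differ beyond their spread by exon union, while by the longest transcript Sox6, at 3.28 ± 0.245 CPM per kilobase, lay below Sox5.

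The distance from early to BEC was taken as 1 for the 3 members with a called change of at least 1 on the log2 scale. Intermediate libraries had covered 1.07 ± 0.062 of it for Sox4, 0.902 ± 0.052 for Sox9 and 0.462 ± 0.203 for Sox12 (SD, n = 3). Full libraries had covered 1.10 ± 0.045, 0.992 ± 0.026 and 1.26 ± 0.048. Values above 1 lie beyond the BEC mean. For Sox12 the intermediate libraries spread from 0.308 to 0.691.

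The other genes of the family were nearly silent. Of the other 13 Sox genes, Sry, Sox1, Sox2 and Sox14 had 0 counts in all libraries, and only Sox7 passed the filter on low counts. Sox7, a SoxF gene of endothelial and early epithelial lineages, had 0, 0 and 1 counts in early and 2, 3 and 3 in intermediate. It had 19, 14 and 14 counts in full and 23, 24 and 27 in BEC. Full lay above intermediate in every library (edgeR adjusted p 0.00349, log2 fold change 2.10, SE 0.49), while BEC was not called above full (0.75, edgeR adjusted p 0.193). Sox7 passed the filter through full and BEC only, so the values that admitted it to the test are also those compared. Its SoxF relatives Sox17 and Sox18 stayed under the filter. Sox17 had 1, 5 and 6 counts in early, 2, 8 and 16 in intermediate, 0, 1 and 0 in full and 0, 1 and 7 in BEC. Sox18 had 0, 9 and 20 counts in early, 3, 8 and 1 in intermediate, 2, 0 and 0 in full and 0, 2 and 5 in BEC. In the fit without a filter, Sox17 was lower in full than in intermediate (log2 fold change -4.55, edgeR adjusted p 0.00272), and Sox18 was not called there (-2.72, edgeR adjusted p 0.116) but was lower in full than in early (-4.46, edgeR adjusted p 0.000609).

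Markers of endothelial cells, in which Sox17 and Sox18 are active, were read beside these counts. The 12 endothelial markers summed to between 19.1 and 31.1 CPM in early, 16.5 and 31.1 in intermediate, 9.91 and 14.2 in full and 10.6 and 18.9 in BEC, with 0 of the 12 at 0 in any group. Of the 9 tested, 2 were higher and 1 was lower at the first step, where 28.7% of all genes were higher and 25.7% lower. At the second step 0 were higher and 3 lower, against 20.8% and 19.8% of all genes, and in BEC 1 was higher and 0 lower than in full, against 10.7% and 10.6%. Their part in the values of Sox7, Sox17 and Sox18 was not tested. The 10 stellate cell and fibroblast markers summed to between 99.1 and 284 CPM in early and 49.7 and 78.9 in full. Of 5 macrophage markers tested out of 7, 1 was higher in BEC than in early, Csf1r (3.94 ± 0.157 and 127 ± 6.69 CPM), and 1 was lower, Cd68 (13.96 ± 2.08 and 3.46 ± 1.09 CPM), where 40% of all genes were higher and 33% lower. The summed level of the list, between 22.7 and 23.5 CPM in early and between 132 and 144 in BEC, followed Csf1r. These markers were named after their values were seen. The 6 Schwann and neural crest markers summed to between 102 and 250 CPM over all libraries, a sum that was not split by gene. Cdh19 was at 0 in every group and Foxd3 in early, full and BEC, and 3 of the 6 passed the filter. The neural crest gene Sox10 had at most 1 count in a library. The 6 erythroid markers, read because Sox6 is active in red cell precursors, summed to between 18.7 and 33.3 CPM in early libraries. Hba-a1, Hba-a2 and Hbb-bt were at 0 there too. In full the sum lay between 0.213 and 0.787 CPM, with 5 markers at 0. Of the 6, 1 passed the filter on low counts. The part of these markers in the Sox values was not tested. The 5 T and NK cell markers and the 4 B cell markers summed to at most 0.511 and 0.411 CPM, and Cd3d and Nkg7 were at 0 in early, intermediate and full.

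Genes linked with Sox9 and Sox4 in duct formation, among them the biliary marker Spp1, formed a list of 12, all tested. At the first step 8 were higher in intermediate, 1 was lower and 3 were not called, with a median log2 fold change of 1.013 against 0.06 for all genes, of which 28.7% were higher and 25.7% lower. Jag1, a Notch ligand, rose from 16.3 ± 3.77 to 215 ± 13.5 CPM (log2 fold change 3.72). The secreted protein Spp1 (3.00), the Notch target Hey1 (2.46) and the transcription factor Onecut1 (1.68) also rose, with edgeR adjusted p values from 1.93e-09 for Jag1 to 0.00326 for Hey1. Hey1 rests on low counts here, 4 over the early group and 33 over intermediate (0.110 and 0.643 CPM). Tgfbr2, a TGF-beta receptor, was the gene that fell (-0.50, edgeR adjusted p 0.00106).

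At the second step 5 of the 12 were higher, 1 was lower and 6 were not called, with a median of 0.39 against 0.01 for all genes, of which 20.8% were higher and 19.8% lower. Heyl rose by 2.50 on the log2 scale, Hey1 by 2.31, Onecut2 by 0.94 and Jag1 by 0.63, with edgeR adjusted p values of 1.46e-05, 0.000188, 1.09e-05 and 0.00404. The Notch target Hes1 had 76.5, 172 and 192 CPM in early, 130, 251 and 285 CPM in intermediate and 198, 325 and 348 CPM in full, higher at each step within every replicate number while the groups overlapped. It was not called at either step without the block (0.60 and 0.39, edgeR adjusted p 0.172 and 0.412) and was called at both with a replicate block (0.62 and 0.42, edgeR adjusted p 0.000154 and 0.00377). The block also called Notch1 at both steps (0.46 and 0.43, edgeR adjusted p 0.0214 and 0.0322) and Onecut1 at the second (0.51, edgeR adjusted p 0.0264), which made 10 of the 12 higher at the first step and 8 at the second, where that fit called 30.1% and 22.9% of all genes higher. Between BEC and full 4 were lower in BEC, 1 was higher and 7 were not called, where 10.6% of all genes were lower and 10.7% higher. Those lower were Hey1 (-1.06), Notch1 (-0.94), Yap1 (-0.29) and Notch2 (-0.28).

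Of 4 genes reported as direct SoxC targets, Tead2 and Ezh2 were tested. Tead2, a TEAD factor, had 1.41 ± 0.357 CPM in early and 52.7 ± 2.80 CPM in intermediate (SD, n = 3). It had 78.1 ± 4.61 CPM in full cells and 34.5 ± 2.89 CPM in BEC (SD, n = 3). Its log2 fold change was 5.23 at the first step (edgeR adjusted p 9.79e-11) and 0.57 at the second (edgeR adjusted p 0.000542). It was lower in BEC than in full by a log2 fold change of -1.18 (edgeR adjusted p 2.60e-06). Ezh2, a histone methyltransferase, rose by 0.46 and 0.57 on the log2 scale (edgeR adjusted p 0.00631 and 0.00161) and was not called between BEC and full (-0.16, edgeR adjusted p 0.398). The neuronal targets Tubb3 and Dcx stayed under the filter, with at most 3 and 26 counts in a whole group.

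**Figure D4:**
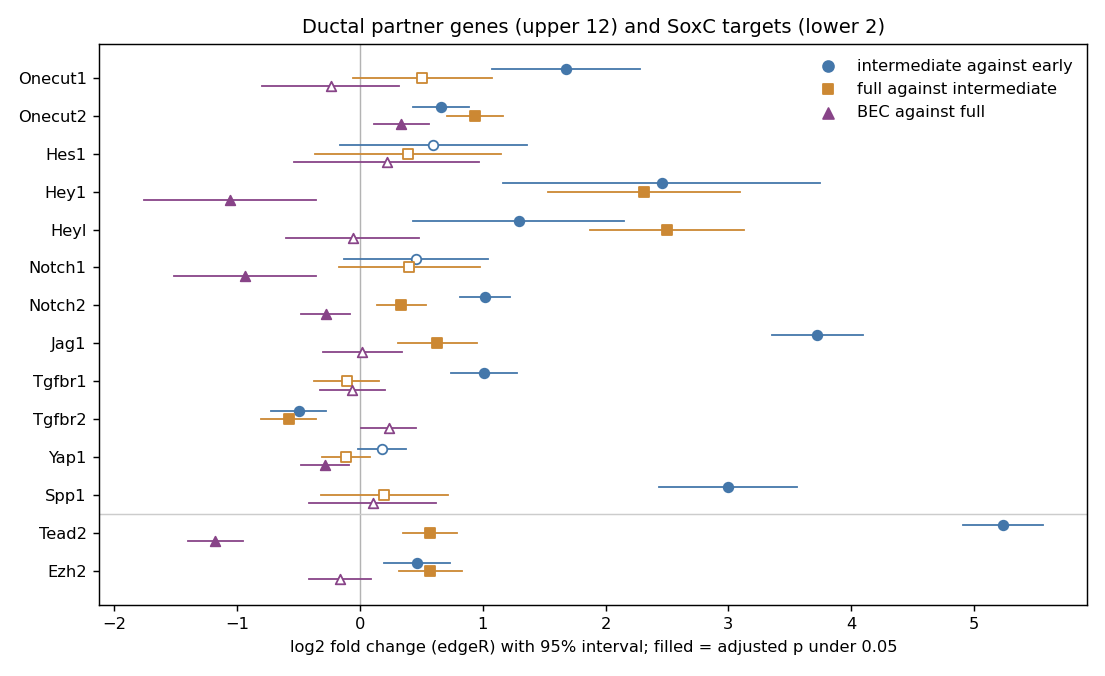
Log2 fold change (horizontal axis, edgeR, with 95% interval) of the 12 ductal partner genes and of the SoxC targets Tead2 and Ezh2 for 3 comparisons, by symbol shape and colour; filled symbols passed an adjusted p of 0.05. Tead2 and Jag1 show the largest values at the first step (5.23 and 3.72), and Hey1, Notch1 and Tead2 lie below 0 in BEC against full.

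The cartilage genes driven by Sox9 with Sox5 and Sox6 were at few or no counts with a few exceptions. Of 12, Col2a1, Col9a1, Matn1 and Matn3 had 0 counts in early and intermediate, Col11a1 had 0 in all groups, and 4 passed the filter. Below the filter, Col2a1 had 7, 3 and 7 counts in full and 10, 3 and 1 in BEC, and Col9a1 had 2, 5 and 1 counts in full and 2, 8 and 4 in BEC, so both were present in every full and BEC library. Col9a3, a collagen IX chain, had 0.0909 ± 0.158 CPM in early and 1.27 ± 0.369 CPM in intermediate (SD, n = 3), then 8.22 ± 0.703 CPM in full cells and 9.40 ± 1.04 CPM in BEC. It rose at both steps (edgeR adjusted p 0.000184 and 1.40e-05). Col9a2 rose with it, from 0 counts in early to 0.227 ± 0.102 CPM in intermediate, 1.31 ± 0.426 in full and 1.46 ± 0.484 in BEC (edgeR adjusted p 0.00906 and 0.00228). The first step of Col9a2 rests on 12 counts over the intermediate group, 2 to 6 per library. It passed the filter through full and BEC only, where it was high. Col11a2 rose at the first step (1.65, edgeR adjusted p 0.00395) and gave -0.23 at the second (edgeR adjusted p 0.635). Hapln1, a matrix link protein, fell at both steps, from 3.11 ± 1.06 CPM in early to 0.362 ± 0.275 in intermediate and 0.0437 ± 0.0758 in full (edgeR adjusted p 0.00168 and 0.0362).

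The genes whose pattern over the 12 libraries was most like that of each member were found by the root mean square difference of log2 CPM after centring. For Sox4 they were Filip1l (0.197), Lamb2 (0.287), a laminin chain, and Smtnl2 (0.307). For Sox9 they were the matrix protein Agrn (0.166), the RNA-binding protein Bicc1 (0.180) and Cavin1 (0.206), a coat protein of caveolae. For Sox12 they were Lipt2 (0.181), Pald1 (0.186) and the replication enzyme Lig1 (0.196), and for Sox6 they were Gstcd (0.123), Palld (0.127) and Itpr2 (0.131). Sox5 was matched by Fyco1 (0.0577), Wdfy2 (0.0776) and Cldn12 (0.0799), and Sox13 by Cwc25 (0.0751), Ap3d1 (0.0764) and Cand1 (0.0771). Within the family the closest pairs were Sox5 and Sox13 (0.165), which hardly varied, Sox6 and Sox13 (0.356) and Sox5 and Sox6 (0.406). Sox4 and Sox9 differed by 0.500, and Sox4 and Sox12 by 1.21, although both are SoxC genes. These distances are descriptions of the same 12 libraries and share their scaling.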

How the data were processed

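The authors deposited raw counts per gene symbol. STAR 2.7.10b, featureCounts 2.0.1, DESeq2 and GRCm39 are named in the submitters' processing notes, without settings; annotation and strandedness were not given in the sources used here. The authors also deposited a signal table, counts divided by 1 size factor per library by its name, which was not used. Of the count table's columns 0 lacked a sample, and 0 rows lacked a gene name.

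Tests used edgeR 4.0.16, with limma 3.58.1 (voom) and DESeq2 1.42.0 as alternatives, under R 4.3.3; figures used matplotlib 3.10.9 under Python 3.11.15. Genes kept by filterByExpr (16210) were scaled by TMM and fitted with a term per group over all 12 libraries, and pairs, all 4 groups and the difference between the steps were tested by quasi-likelihood F tests. Log2 CPM used a prior count of 2. Kept genes held 99.9% of counts in the library with the lowest share. Lengths are exon unions of GENCODE M21. Floors of 3 counts and counting intervals (exact binomial, 95%) cover counting error only.

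The members and lists were chosen with earlier results of these data known, and 1 gene of the ductal and biliary lists is not reported here. Named genes were the 7 members, the other Sox genes, the called genes of each list (up to 4 by fold change) and the 3 genes nearest in pattern to each member. Alternatives covered other tests, scalings, filters, a replicate block, fits of 6 libraries and leaving out each library. The block for genes of the ductal, SoxC and cartilage lists was added after seeing the data. As a check of pairing, each library's departure from its group mean was correlated across genes with that of the library carrying the same number. This r lay from 0.121 to 0.322 in intermediate against early, full against intermediate and BEC against full, where every pair passed 0.1 and the numbers were taken to pair libraries. For each remaining comparison, 1 or more pairs fell short of 0.1, although libraries that pair across linked groups would pair there too. Libraries of unlike number were not correlated. The main fit has no term for the replicate number, so its calls leave such pairing out. The procedure was tested on simulated data.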

Additional observations from a re-analysis of the deposited data

How the results depend on the processing

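Sox4, Sox9 and Sox12 kept their calls against early cells in each of the 21 alternatives, as did Sox6 for full and BEC against early. Their log2 fold changes at the first step ranged from 3.72 to 4.54, from 2.66 to 3.51 and from 0.51 to 1.36. With total counts only, all 6 tested members were called higher at the first step and in full and BEC relative to early, Sox5 and Sox13 included (edgeR adjusted p 0.000145 and 7.22e-07 in full, 0.000344 and 3.24e-06 in BEC), and Sox13 changed less at the second step than at the first (-0.57, edgeR adjusted p 0.0150). Upper quartile factors called Sox13 higher in full than in early (0.23, edgeR adjusted p 0.0363). Sox9 was called at the second step with total counts only (0.48, edgeR adjusted p 0.0300) and with only the 6 libraries compared (0.29, edgeR adjusted p 0.0415). The number of members called between BEC and full, 0, became 2 with limma-voom, 2 without a filter on low counts, 2 with the replicate block and 3 with only the 6 libraries compared. Between BEC and intermediate, 1 became 2 with total counts only, 2 with upper quartile factors, 2 without a filter, where Sox11 entered the test, and 2 with the replicate block. The replicate block called Sox9 (0.31, edgeR adjusted p 0.0219) there. Beside the calls given with the results, it changed no other call of a member. The same held for genes of the ductal, SoxC and cartilage lists at the 3 comparisons whose numbers pair. Cell type markers were not read with the block. Leaving out 1 library gave 1 to 2 members at the second step, 0 to 1 between BEC and full (Sox6 without early replicate 1 or full replicate 1) and 1 to 2 between BEC and intermediate (Sox9 without early replicate 1 or BEC replicate 1).

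Over all genes, the number whose second step differed from the first, 2665, was 6139 with total counts only and 1676 to 2863 without 1 library, the lowest without intermediate replicate 2. Scaling by totals also moved the balance of directions. At the first step 9626 genes were called higher and 1623 lower, against 4658 and 4159 on the TMM scale, and at the second 5236 and 1976, against 3376 and 3214. Full against early gave 10766 and 2395, against 6340 and 5201. BEC gave 10669 and 2624 relative to early, against 6491 and 5351, and 5833 and 2933 relative to intermediate, against 4259 and 4243. The median of all genes moved to 0.72, 0.21, 1.005, 1.004 and 0.20 in these comparisons.

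Signs turned only for values near 0 or with scaling. With total counts only, Sox5 became 0.52, 0.16, 0.68, 0.62 and 0.095 (first step, second step, full against early, BEC against early, BEC against intermediate) and -0.36 in the difference between the steps, where Sox6 became -0.38; Sox13 became 0.18 at the second step, 0.80 for BEC against early and 0.050 in BEC relative to intermediate. With upper quartile factors Sox5 was 0.050 and Sox13 0.067 at the second step, and Sox13 was 0.11 for BEC against early. Sox13 at the second step was also 0.016 with DESeq2, 0.017 with median-of-ratios factors, 0.0029 with the stricter filter, 0.018 without intermediate replicate 2 and 0.015 without full replicate 1. Leaving out 1 library turned Sox4 (-0.0094, intermediate replicate 2) and Sox5 (0.036, intermediate replicate 3, and 0.0044, full replicate 1) at the second step, where such fits reached 0.22 for Sox4 at the highest, and -0.13 for Sox5 and -0.085 for Sox13 at the lowest. It turned Sox5 (0.015, full replicate 3) and Sox9 (-0.0320 and -0.0302, BEC replicates 2 and 3) between BEC and full. In the difference between the steps it turned Sox5 (-0.040, intermediate replicate 2, up to 0.26) and Sox6 (-0.0261, -0.11 and -0.0289, without early replicate 3, intermediate replicate 2 and full replicate 3). On linear CPM the shares of the way to BEC in intermediate were 1.23 for Sox4 and 0.779 for Sox9, and in full 1.32 for Sox4 and 1.46 for Sox12. The cause was not tested beyond the shift of the median. Sox11 and the SoxF genes rest on 27 counts or fewer per library, which limits their precision.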
